A study of Rattus norvegicus with 6 samples.

Results

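The miR-101 strands listed for rat brain are described here in 6 small RNA libraries, 3 from the 2-vessel occlusion (2VO) group and 3 from 2VO rats given tilianin. The 3 strands are rno-miR-101a-3p, rno-miR-101b-3p and rno-miR-101a-5p (the prefix for rat is left out below), out of 775 listed miRNAs, and they were chosen by name. Earlier results of the same libraries were known when they were chosen. Among them, miR-101a-5p lay past the criterion of the study in edgeR's quasi-likelihood test. All differences between the tilianin and 2VO groups in these strands are therefore given as descriptions, without a test. The other strand of the family, miR-101b-5p, is listed with 0 counts in every library.

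The animals were male Sprague–Dawley rats, 7 weeks old when purchased, and both groups underwent ligation of both common carotid arteries under pentobarbital sodium (30 mg/kg). This operation lowers blood flow to the brain and serves as a model of vascular dementia. The tilianin group received tilianin, a flavonoid glycoside, at 40 mg/kg daily for 4 weeks by gastric tube in 0.5% CMC-Na, and the 2VO group received 0.5% CMC-Na alone at 5 mL/kg. The labels give the tissue as brain. The paper names brain tissue in its methods and cortical tissue in the legend of its sequencing figure. Whether each library is 1 rat is not said in the labels, so the spread between libraries may in part be technical. Sham rats are not analysed here.

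A miRNA hairpin is cut by Drosha and Dicer into a short duplex, of which one strand, the guide, is usually loaded into an Argonaute protein while the other, the passenger, is mostly degraded. In miR-101 the guide is the 3p strand. miR-101 is known for its sites in the mRNAs of Ezh2, the histone H3 lysine 27 methyltransferase of the Polycomb complex, and of App, the amyloid precursor protein from which amyloid beta is cut. The ratio of the strands of one hairpin compares 2 counts of the same library and needs no scaling between libraries.

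The mature sequences are shown because the a and b guides can be told apart by a single base, which bears on how reads were divided between them. They are from RefSeq (GRCr8), 5′ to 3′, with the seed (bases 2 to 8) in capitals.
miR-101a-3p: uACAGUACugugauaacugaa
miR-101b-3p: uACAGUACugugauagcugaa
miR-101a-5p: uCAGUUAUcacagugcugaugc
miR-101b-5p: uCGGUUAUcaugguaccgaugc
miR-144-3p: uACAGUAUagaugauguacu
The guides of miR-101a and miR-101b share the seed ACAGUAC, which no other listed mature rat sequence of RefSeq carries, and differ at 1 of 21 bases, A16G, counted from 1 at the 5′ end. With so close a copy, the authors' counting could divide reads between the guides, and their split is uncertain to that extent. The passenger strands of the 2 hairpins differ at 5 of 22 bases (A3G, C11U, A12G, G15A and U17C), 1 of them inside the seed, and no other mature sequence lies within 2 mismatches of miR-101a-5p. miR-144-3p, a miRNA of red blood cells, shares the first 7 bases with the miR-101 guides and differs from miR-101a-3p at position 8 (C8U) and beyond.

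The hairpins show how the strands face each other. The mature arms are in capitals, the 5p arm first.
Mir101a, chr5:121081683-121081757, minus strand: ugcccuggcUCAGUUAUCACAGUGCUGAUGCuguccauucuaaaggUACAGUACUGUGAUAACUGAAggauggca
Mir101-2 (miR-101b), chr1:236273922-236274018, plus strand: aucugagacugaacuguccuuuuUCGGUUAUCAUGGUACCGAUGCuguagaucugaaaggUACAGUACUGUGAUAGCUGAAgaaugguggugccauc
These coordinates belong to GRCr8, and the build used by the authors is not given in the sources used here. In the GRCr8 annotation Mir101a lies within the long non-coding RNA gene LOC120102934 and Mir101-2 within Rcl1, a gene for an RNA 3′-terminal phosphate cyclase-like protein, each on the strand of its host; whether the hairpins are exonic or intronic was not analysed. Folded with RNAfold, the 75 bases of Mir101a had a minimum free energy of -36.2 kcal/mol with 20 base pairs between the arms. The 97 bases of Mir101-2 gave -31.4 kcal/mol and 19 base pairs between the arms.

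Total counts per library were between 7175872 and 13198776, and the 454 miRNAs whose counts summed to 10 or more entered the fit. Tilianin replicate 2 was the least like the rest (Spearman's rho of 0.936 to 0.957 with them, and 0.983 to 0.992 among them). Of 4 neuronal marker miRNAs, all were detected in every library, with a summed level in CPM (counts scaled to library size) of 124270 to 165850 without tilianin and of 138340, 75533 and 166770 in tilianin replicates 1 to 3. Of the miRNAs of the Hox clusters, only miR-10a-5p and miR-10b-5p were summed. Together they had 88.1 to 155 CPM without tilianin, while tilianin replicates 1 to 3 had 312, 19597 and 517 CPM. Of the 3 red blood cell miRNAs, the summed level was 153 to 206 CPM without tilianin and 358 to 797 CPM with it. Nearly all of this was miR-486, with 1396 to 2015 counts per library without tilianin and 2766 to 5691 with it. The other members, miR-451-5p and miR-144-3p, had 0 to 4 and 2 to 23 counts per library. The 2 oligodendrocyte miRNAs summed to 19.0 to 34.2 CPM without tilianin and 18.5 to 44.7 CPM with it. For the 3 muscle miRNAs the sums were 75.8 to 120 and 114 to 376 CPM. Of these lists, miR-219a-5p and miR-1-3p had 0 or 1 counts per library. The similarly named miR-219b and miR-1b were left out of the sums. In TMM-scaled CPM, miR-219b was at 260 to 768 without tilianin and at 551, 1368 and 344 in tilianin replicates 1 to 3. For miR-1b the values were 158 to 320 without tilianin and 325, 1969 and 235 in tilianin replicates 1 to 3. miR-122-5p of liver was at 1.49 to 23.2 CPM without tilianin and 0.557 to 2.20 CPM with it. At the study's criterion, given below, miR-10a-5p and miR-10b-5p were higher with tilianin and miR-122-5p was lower. Also higher were 1 of 2 tested red blood cell miRNAs and 1 of 2 tested muscle miRNAs. Of the 4 neuronal miRNAs and the 1 tested oligodendrocyte miRNA, 0 passed. Among all 454 tested miRNAs, 4.63% were higher and 1.10% lower. In bulk tissue, fewer cells of a type and less RNA per cell cannot be told apart. The part of these markers in the miR-101 values was not tested. A count near 0 in this table need not mean absence from the tissue, since even the common miR-21-5p has 1 to 8 counts a library.

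Among the guides, miR-101a-3p was the most abundant strand of the family in every library. Scaled with TMM, the levels in 2VO replicates 1 to 3 were 1437, 1324 and 1204 CPM, and those in tilianin replicates 1 to 3 were 1360, 1380 and 1257 CPM. All treated libraries lay inside the 2VO range, and the strand ranked 52 to 59 among the listed miRNAs of each library. The group means were 1322 ± 116 CPM for 2VO and 1332 ± 66.2 CPM for tilianin (SD, n = 3 each). Between 8959 and 17156 reads of it were counted in a library. The log2 fold change between the groups was 0.01 (approximate standard error 0.18), so that the difference was smaller than the spread between libraries. In tilianin replicate 2, where the neuronal markers were lowest, miR-101a-3p was at 1380 CPM after TMM scaling, within the range of the other libraries. By library totals, the scale of the neuronal sums, it was at 1248.5 CPM there. This was the lowest value of any library, just under the 1252.9 CPM of 2VO replicate 3.

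miR-101b-3p, the guide with the same seed, was present at a lower level and was less even in the treated group. The levels in 2VO replicates 1 to 3 were 295, 284 and 264 CPM, and those in tilianin replicates 1 to 3 were 199, 379 and 336 CPM. The 2VO libraries were close together, and the treated libraries lay on both sides of them, replicate 1 below and replicates 2 and 3 above. The means were 281 ± 15.3 CPM and 305 ± 94.3 CPM (SD, n = 3 each), with a coefficient of variation of 5.5% in the 2VO group and 30.9% in the tilianin group. The log2 fold change was 0.12 (approximate standard error 0.268). It was 0.37 without tilianin replicate 1 and -0.06 without tilianin replicate 2, so that its sign rested on single libraries.

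**Figure D1:**
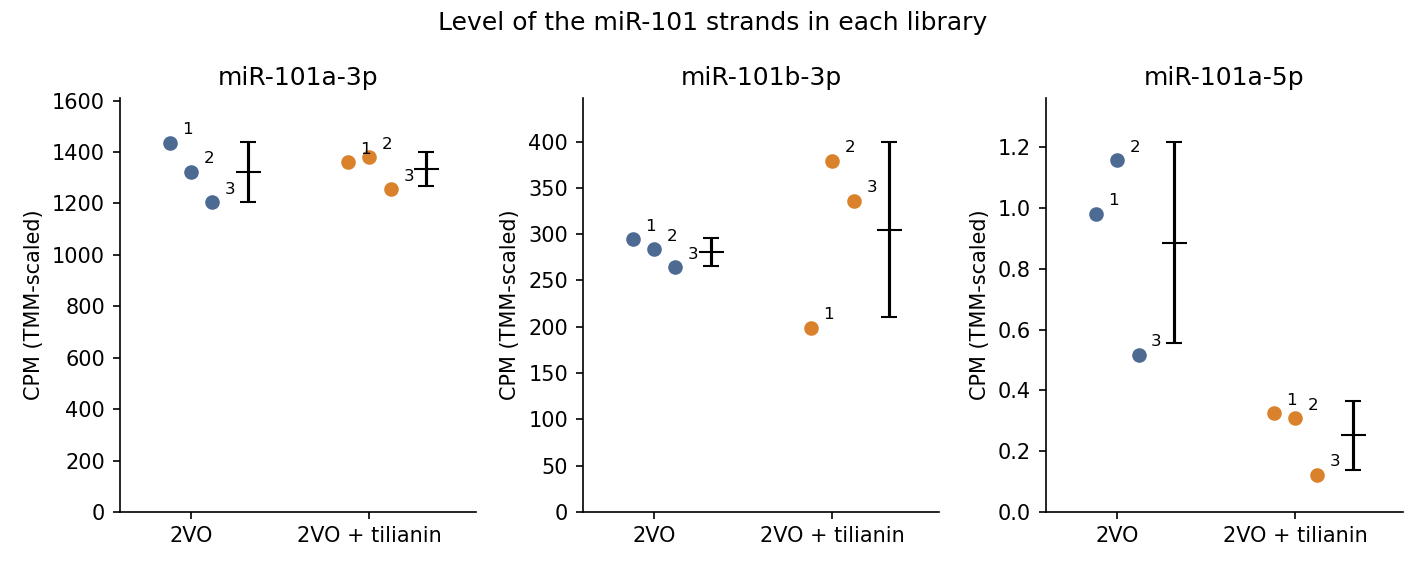
Level of miR-101a-3p, miR-101b-3p and miR-101a-5p in TMM-scaled CPM (y axes from 0, one scale per strand) in each 2VO and tilianin library, with the replicate number beside each point and the mean ± SD in black. The groups overlap for both 3p strands, and the 3 treated libraries lie below the 2VO libraries for miR-101a-5p, which has 1 to 15 counts per library.

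The summed level of both guides, which carry the same seed, was steadier relative to its mean than miR-101b-3p in the tilianin group only. In CPM it was 1731, 1608 and 1469 for 2VO replicates 1 to 3 and 1559, 1759 and 1593 for tilianin replicates 1 to 3. The treated values fell among those of the 2VO group, except that replicate 2 was slightly higher than the highest 2VO library. The means were 1603 ± 131 CPM and 1637 ± 107 CPM (SD, n = 3 each).

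The division of the guide reads between miR-101a and miR-101b differed between treated libraries by more than counting error. miR-101b-3p made up 17.0%, 17.7% and 18.0% of the guide reads for 2VO replicates 1 to 3, with 95% exact binomial (Clopper-Pearson) intervals that together run from 16.4% to 18.7%. In tilianin replicate 1 the share was 12.8% (95% interval 12.2% to 13.3%), below every other library. In tilianin replicates 2 and 3 the shares were 21.6% (20.8% to 22.3%) and 21.1% (20.4% to 21.8%), above every 2VO library. As reads, 4.56 to 4.88 of miR-101a-3p were counted for each of miR-101b-3p in the 2VO group, and 6.84, 3.64 and 3.74 in the treated libraries. The group means of the share were close, at 17.6 ± 0.499% and 18.5 ± 4.96% (SD, n = 3 each), and the groups overlapped. Molecular identifiers are not mentioned in the sources used here, so these intervals cover counting error only.

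**Figure D2:**
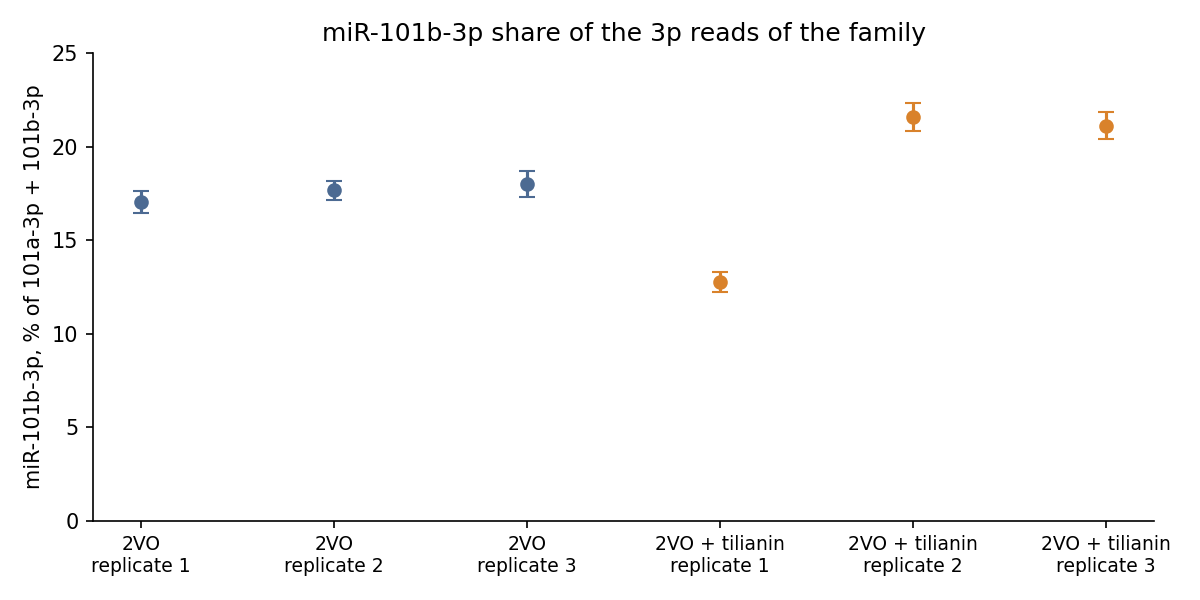
Share of miR-101b-3p in the summed reads of miR-101a-3p and miR-101b-3p (y axis, percent, from 0) in each library, with 95% exact binomial intervals that cover counting error only. The 2VO libraries sit between 17.0% and 18.0%, and the treated libraries at 12.8%, 21.6% and 21.1%.

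The guides were also unlike each other in the miRNAs they followed across the 6 libraries. Pearson's r between miR-101a-3p and miR-101b-3p was 0.05 on log2(CPM + 1). Among 160 miRNAs outside the family with a mean of at least 100 CPM, those most like miR-101a-3p were let-7c-5p (r = 0.973), let-7a-5p (r = 0.934) and let-7f-5p (r = 0.911), which are sequence relatives of each other. Those most like miR-101b-3p were miR-598-3p (r = 0.943), miR-330-5p (r = 0.922) and miR-340-5p (r = 0.869). Without tilianin miR-598-3p was at 383, 392 and 364 CPM, and with tilianin at 287, 594 and 420 CPM, so that, as for miR-101b-3p, tilianin replicate 1 was lowest and replicate 2 highest. These are descriptions over 6 libraries that share one scaling, the highest of 160 values, and no p is given.

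The passenger strand miR-101a-5p was nearly absent from the reads. 2VO replicates 1 to 3 held 9, 15 and 4 counts of it, and tilianin replicates 1 to 3 held 3, 2 and 1. Every treated library was lower than every 2VO library, in counts as well as after scaling. In TMM-scaled CPM the 2VO libraries were at 0.981, 1.16 and 0.518 and the tilianin libraries at 0.326, 0.308 and 0.122, with means of 0.885 ± 0.331 and 0.252 ± 0.113 CPM (SD, n = 3 each). Counting error alone was wide at this depth. By library totals, 2VO replicate 3 was at 0.538 CPM (95% Poisson interval 0.147 to 1.38) and tilianin replicate 1 at 0.317 CPM (0.0654 to 0.926), and these intervals overlap. Over the groups, 28 counts of 29365874 stood against 6 of 24376207, a ratio of 3.87 of 2VO to tilianin with a 95% exact interval of 1.57 to 11.4 for counting error only. The log2 fold change of the edgeR fit was -1.79 (approximate standard error 0.609).

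The study screened miRNAs at an unadjusted p under 0.05 and a log2 change of more than 1 either way. At this criterion the edgeR quasi-likelihood test had placed 1 of the 3 strands, miR-101a-5p, among the lower miRNAs. Of all 454 tested miRNAs, 5 were lower at this criterion (1.10%) and 21 higher (4.63%), and 19 (4.19%) had treated libraries all below the 2VO libraries, out of 44 (9.69%) whose groups did not overlap in either direction. These shares are given as background, since this same contrast had brought miR-101a-5p to attention. No miRNA of the 454 had an adjusted p below 0.05 with edgeR's quasi-likelihood test (smallest 0.397), and 33 had an unadjusted p below 0.05. DESeq2's Wald test gave 3 with an adjusted p below 0.05, and it did not place miR-101a-5p past the criterion. In edgeR, miR-101a-5p was past the criterion in 3 of the 6 fits that left out 1 library. It was not without 2VO replicate 1 (log2 fold change -1.73), 2VO replicate 2 (-1.51) or tilianin replicate 3 (-1.47).

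Within the miR-101a hairpin, the guide outnumbered the passenger by far in every library. For each miR-101a-5p read there were 1465, 1144 and 2327 reads of miR-101a-3p for 2VO replicates 1 to 3, and 4175, 4480 and 10295 for tilianin replicates 1 to 3. The passenger share was 0.0682%, 0.0874% and 0.0430% in the 2VO libraries and 0.0239%, 0.0223% and 0.00971% in the tilianin libraries. The treated libraries were all lower, yet 95% exact intervals of the groups overlapped, as between 2VO replicate 1 (0.0312% to 0.129%) and tilianin replicate 1 (0.00494% to 0.0700%). On the log2 scale, with 0.5 added to each count, the ratio of 5p to 3p was -10.52 ± 0.455 in the 2VO group and -12.12 ± 0.537 in the tilianin group (SD, n = 3 each), a difference of -1.60. Since miR-101a-3p itself differed by only 0.01 on the log2 scale, the difference in the ratio followed that of the passenger strand.

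**Figure D3:**
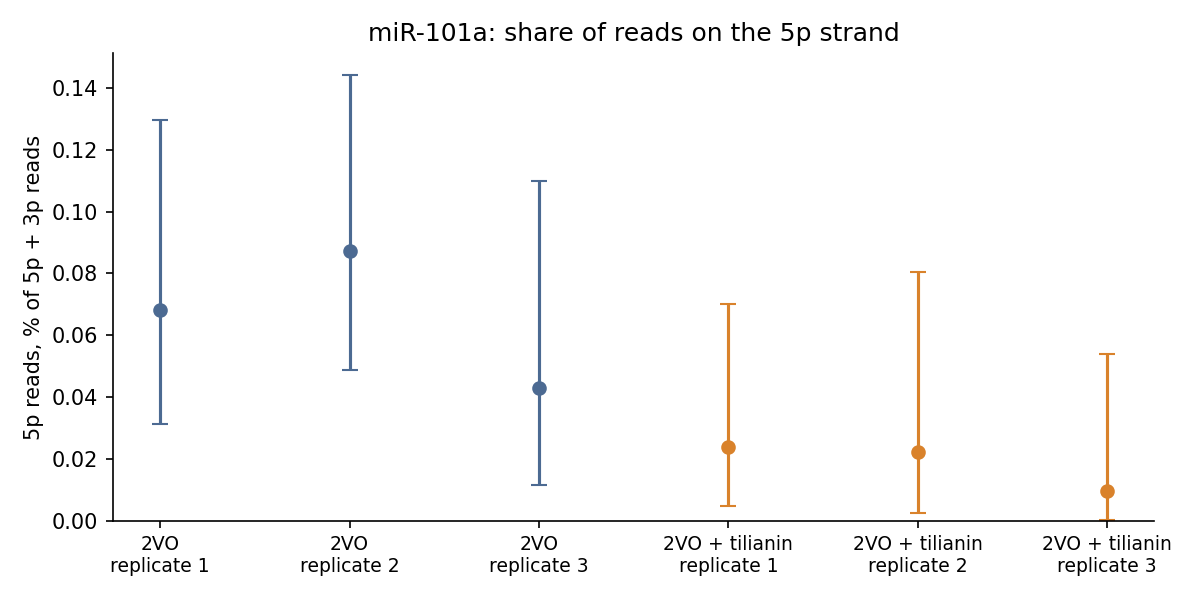
Share of miR-101a-5p in the reads of both miR-101a strands (y axis, percent, from 0) in each library, with 95% exact binomial intervals that cover counting error only. The 2VO libraries lie between 0.0430% and 0.0874% and the treated libraries between 0.00971% and 0.0239%, with intervals that overlap between groups.

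The passenger of the other hairpin was not detected. miR-101b-5p had 0 counts beside 15475 reads of miR-101b-3p, which allows a share of up to 0.0194% for 3 counts. At the miR-101a share of 0.0476% (34 of 71460 reads, 95% exact interval 0.0330% to 0.0665%), 7.36 counts would be expected. Within the 2VO group the limit for miR-101b-5p was 0.0356%, under the interval of miR-101a-5p (0.0469% to 0.102%). Within the tilianin group it was 0.0426%, above the miR-101a-5p share of 0.0189%, so that at this depth no difference between the hairpins was detectable there. All these values pool the reads of the libraries and cover counting error only, not the spread between libraries. A difference between the hairpins was not tested in either group.

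By the listed counts, the miR-101 hairpins were strongly one-sided, as were other hairpins with many reads. Hairpins were paired by name, and 151 of the 283 listed with both arms had at least 10 counts on each. Their median minor-arm share was 4.75%, and that of miR-101a, 0.0476%, was the ninth lowest. Shares this low can be seen only in hairpins with many reads. Of 79 hairpins with at least as many reads as that of miR-101b, 14 had a lower minor-arm share than miR-101a. In 3 of them, miR-101b, miR-149 and miR-185, the minor arm had 0 counts, which need not mean absence from the tissue. The hairpins nearest to miR-101a in 5p share, among those with at least as many reads, were miR-27a (0.0339%), miR-27b (0.0700%) and miR-23b (0.0712%), which come from related clusters. Their 5p to 3p ratios differed between groups by 0.37, 0.02 and -0.32 on the log2 scale, against -1.60 for miR-101a, and each of these 3 had overlapping groups. miR-27a-5p, the one with counts most like those of miR-101a-5p, was counted 5, 10 and 14 times without tilianin and 11, 11 and 12 times with it.

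**Figure D4:**
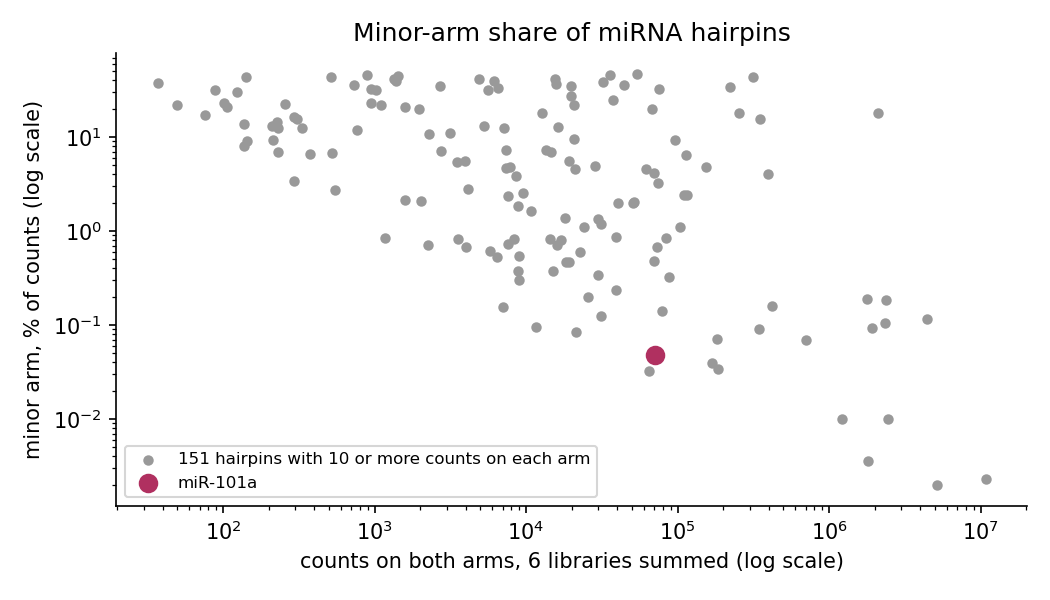
Minor-arm share (y axis, percent of the counts on both arms, log scale) against the counts on both arms summed over 6 libraries (x axis, log scale) for 151 hairpins, with miR-101a in red. miR-101a lies at 0.0476% with 71460 counts, and lower shares occur in 8 hairpins.

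In most other hairpins the arm ratio differed less between the groups than in miR-101a. Over the 151 hairpins the log2 ratio of minor to major arm differed between tilianin and 2VO by a median of 0.03, with quartiles of -0.20 and 0.22 and a range of -2.23 to 1.69, and it was lower in 68 and higher in 83. The other hairpins with a fall at least as large as that of miR-101a were miR-466c (-2.23), miR-216b (-1.84) and miR-487b (-1.79), named here after their values were seen. The minor arm had 11, 23 and 39 counts in all in these hairpins, and 34 in miR-101a. In the other direction, the largest rise was 1.69 in miR-598, also named after its value was seen. Its minor arm had 18 counts in all, and its groups did not overlap. In 30 minor arms with no more than 34 counts the median size of the difference was 0.59, against 0.18 for minor arms with more counts. Groups did not overlap, with the minor arm lower in tilianin, in 6 hairpins (3.97%), of which miR-101a was 1, and in 12 in either direction (7.95%). Without tilianin replicate 2 the difference for miR-101a was -1.75 and the median over hairpins -0.03. Among all 151 minor arms, 3 were higher and 2 lower at the study's criterion, and the median log2 fold change was -0.02, beside -0.03 over all tested miRNAs.

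**Figure D5:**
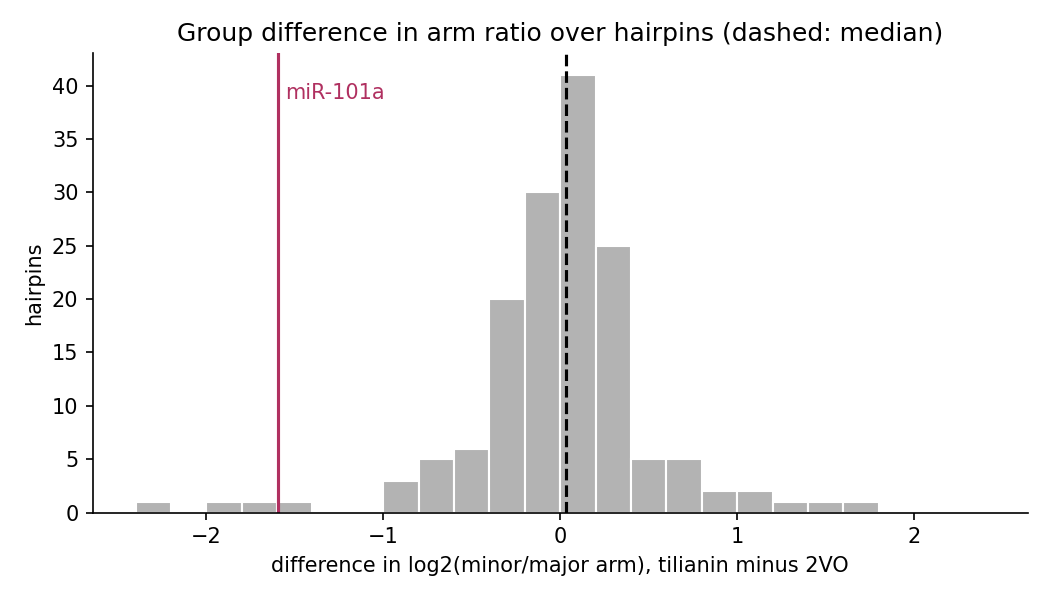
Number of hairpins (y axis) by the difference between tilianin and 2VO in the log2 ratio of minor to major arm (x axis), for 151 hairpins with at least 10 counts on each arm. The dashed line is the median of 0.03, and the red line is miR-101a at -1.60.

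miR-144-3p, which shares the first 7 bases with the miR-101 guides, was rare. It was counted 21, 3 and 2 times without tilianin and 3, 23 and 4 times with it, so that 1 library of each group was high. The other strand of that hairpin, miR-144-5p, had 1 count in all.

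Other miRNAs reported to act on App, on Bace1, the beta-secretase that cuts App, or on Ezh2 were listed as well, and 1 of them passed the study's criterion. Of 6 App miRNAs, 5 could be tested, with a median log2 fold change of 0.15, and 0 passed (lowest unadjusted p 0.361 by edgeR's quasi-likelihood test). The most abundant were miR-16-5p, at 2991 ± 276 CPM without tilianin and 3319 ± 589 CPM with it (SD, n = 3 each), and miR-153-3p, a neuronal miRNA. Without tilianin miR-153-3p was at 2089, 2200 and 2367 CPM, and with tilianin at 2022, 674 and 2298 CPM, so that only tilianin replicate 2 was low. Of 9 Bace1 miRNAs, 8 were tested, with a median of -0.12, and 0 passed (lowest unadjusted p 0.1545 by the same edgeR test). Among them miR-29b-3p had a log2 fold change of -0.14 (approximate standard error 0.293) and miR-195-5p of 0.56 (0.353). All 8 Ezh2 miRNAs were tested, with a median of 0.06, and 1 passed, miR-214-3p, which rose on 11 to 38 counts per library. Its log2 fold change was 1.66 (approximate standard error 0.396). By edgeR's quasi-likelihood test its p was 0.0039 unadjusted and 0.591 adjusted. miR-26a-5p, with the most reads of the list, was at 92696 ± 2902 CPM without tilianin and 97134 ± 26645 CPM with it (SD, n = 3 each). Beside 4.63% higher and 1.10% lower miRNAs among all tested, these lists held 1 higher and 0 lower.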

How the data were processed

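Small RNA of rat brain was sequenced from TruSeq Small RNA libraries, with 3 libraries each of the 2VO and tilianin groups. The authors deposited raw counts of reads per mature miRNA, without normalization. The submitters' processing notes name FastQC 0.11.2, Trimmomatic 0.36, cutadapt 1.14 and DESeq2 1.12.4; the aligner, miRNA reference, genome build and counting program are not given in the sources used here. Columns were matched to samples by the library code in the labels.

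Rows summing to 10 counts or more over the libraries entered the fit. Library sizes were scaled with TMM, and the quasi-likelihood test of edgeR 4.0.16 (limma 3.58.1, R 4.3.3) was used with group as the term. The thresholds are those of the study. Its methods name no test for the sequencing, while the submitters' processing notes name DESeq2. Standard errors are approximate, being the fold change divided by the root of its F. Exact intervals and ratios used Python 3.11.15 and scipy 1.17.1, folding ViennaRNA 2.7.2, and alternatives DESeq2 1.42.0. A sequence of the same name in RefSeq was found for 689 of 775 miRNAs, all 3 members included. The code was tested on simulated data.

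The members, lists and named miRNAs were chosen with earlier results of these data known. The named miRNAs are the members and their seed relatives, the lists on App, Bace1 and Ezh2, markers of tissues, the 3 miRNAs most like each guide, and the 3 hairpins nearest in 5p share.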

Additional observations from a re-analysis of the deposited data

How the results depend on the processing

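Over all tested miRNAs, 21 were higher and 5 lower in the tilianin group at the study's criterion. The lower miRNAs were 8 with library totals, 2 with filterByExpr and 3 with DESeq2's Wald test. The higher miRNAs were 9 with the replicate block. Across the 6 fits that each left out 1 library, 7 (without 2VO replicate 2) to 29 (without tilianin replicate 1) were higher and 2 to 5 lower. For these counts the cause was not tested. The labels share replicate numbers between groups and do not say that the numbers pair the libraries. For numbers 1, 2 and 3 the deviations from the group means had a correlation of -0.121, 0.00917 and 0.297. With 3 libraries per group, these values cannot settle whether the libraries are paired. With the block, the log2 fold changes of miR-101a-3p, miR-101b-3p and miR-101a-5p were 0.01, 0.07 and -1.76.

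All 56 alternative values of the fold changes and ratios of the miR-101 strands differed from the reported ones by less than 1 SD between libraries. The log2 fold change was -0.06 to 0.07 for miR-101a-3p, -0.06 to 0.37 for miR-101b-3p and -2.04 to -1.24 for miR-101a-5p, the last with a prior count of 2. The difference in the log2 ratio of miR-101a-5p to miR-101a-3p was -1.84 to -1.28, and that of miR-101a-3p to miR-101b-3p was -0.35 to 0.11, so that the sign of the latter rested on single libraries. With filterByExpr miR-101a-5p had too few counts to be kept and gave no value. DESeq2's Wald test did not place it past the criterion, with a log2 fold change of -1.82. With 1 to 15 counts per library, depth limits what can be said of miR-101a-5p.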
